A study of Arabidopsis thaliana with 24 samples.

Results

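CML37 (AT5G42380), AT3G01830 and AT3G47480 are 3 Arabidopsis genes for EF-hand proteins of the calmodulin-like group. They were chosen by name as the brightest probe set that the array annotation assigns to each gene alone, with earlier results of these data known, and make up 3 of the 35 calmodulin-like family genes measured here and 3 of the 22746 probe sets tested. Their values in all 8 groups are therefore a description, and no p-value is given for them. Each was the only probe set of its gene.

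Calcium ions flow into the plant cell cytosol within minutes of contact with a microbe, a wound or an elicitor. EF-hand proteins bind calcium through a helix-loop-helix fold, change shape, and pass the signal on to the proteins they touch. Calmodulin is the common member of this class, and the calmodulin-like proteins are a plant family of related sensors, most of which have no known domain other than EF-hands. CML37 is known as a sensor that acts in defence against chewing insects and in the drought response. Transcripts of many calcium sensors rise during the defence response driven by salicylic acid.

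The plants were the double mutant mkk1/mkk2, the single mutants mkk2 (allele Garlic_511-HO1) and mkk1 (allele SALK_027645), and Col-0, the wild-type accession. The alleles combined in the double mutant are not given in the labels used here. Both genes encode a MAP kinase kinase, an enzyme of the phosphorylation relay that runs from receptors to MAP kinases. Each genotype was sampled 24 h after BTH and untreated, with 3 ATH1 arrays per group and 24 in all. BTH (benzothiadiazole) is a synthetic activator of the salicylic acid pathway. RNA came from whole plants grown in soil in days of 8 h light (21 °C) and nights of 16 h (16 °C). The untreated Col-0 samples are titled as time 0 and the untreated mutants carry no time, and the titles name no mock spray. The labels disagree with one another. The sample descriptions name untreated Col-0 throughout, and the treatment notes record a 100 µM spray for the 6 BTH samples of mkk1/mkk2 and mkk2 and a control treatment for the other 18, the BTH samples of mkk1 and Col-0 among them. Groups were taken from the titles. Whether replicates A, B and C were separate plants is not stated, so p-values measure only the spread between these samples. MKK1 and MKK2 themselves had no probe set of their own in the annotation, and the genotypes were not checked on the arrays.

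Values are log2 RMA expression values, and a difference of 1 is 2-fold. The array medians lay between 5.57 and 5.78. The number of arrays limits the precision, and levels of different probe sets are not compared. Array A of untreated mkk1/mkk2 correlated least with its own group (mean r = 0.933), followed by array A of BTH-treated Col-0 (0.975) and array B of untreated mkk2 (0.976). The spiked control bioC minus bioD was -2.23 to -1.77 on the 12 mkk1/mkk2 and Col-0 arrays and -3.61 to -3.33 on the 12 mkk2 and mkk1 arrays. These ranges did not overlap, so a difference between a single mutant and Col-0 cannot be told apart from a difference between array sets. The GAPDH 3′ minus 5′ signal, a measure of RNA integrity, was 0.14 to 1.27 in mkk1/mkk2, -0.07 to 0.61 in mkk2, -0.04 to 0.31 in mkk1 and 0.60 to 1.18 in Col-0. After BTH it was lower than untreated without overlap in mkk2 (-0.07 to 0.19 against 0.30 to 0.61) and mkk1 (-0.04 to 0.23 against 0.26 to 0.31). In mkk1/mkk2 and Col-0 the BTH and untreated ranges overlapped. The highest value, 1.27, was that of array A of untreated mkk1/mkk2. The part of this signal in the results was not tested. In RNA from whole plants, fewer cells that use a gene and less RNA per cell cannot be told apart.

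Without any treatment, all 3 genes were many-fold higher in mkk1/mkk2 than in Col-0. CML37 was 9.99-fold higher, AT3G01830 26.9-fold and AT3G47480 21.7-fold. On all 3 untreated mkk1/mkk2 arrays each gene lay above all 3 untreated Col-0 arrays, as did 17.2% of all probe sets tested. In both single mutants the means of all 3 genes were below those of Col-0.

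CML37 had values of 6.57, 6.86 and 7.35 on the 3 untreated mkk1/mkk2 arrays, against 3.50, 3.35 and 3.97 in untreated Col-0. The difference was 3.32 ± 0.25 (log2, SE from the fit over all 24 arrays). CML37 lay above the median of its array on the 6 mkk1/mkk2 arrays and below it on all 18 arrays of the other genotypes, and AT3G01830 and AT3G47480 were below it on the untreated arrays of mkk2, mkk1 and Col-0. AT3G01830 had 8.30, 9.38 and 9.87 in untreated mkk1/mkk2, against 3.89, 4.46 and 4.96 in untreated Col-0, a difference of 4.75 ± 0.34. The gap between the groups was larger than the spread within either. AT3G47480 had 8.13, 10.11 and 10.23 in untreated mkk1/mkk2, against 5.43, 4.86 and 4.87 in untreated Col-0, a difference of 4.44 ± 0.42. In all 3 genes array A was the lowest of the untreated double mutant. Without the 3 arrays that stood apart the differences were 3.50 for CML37, 5.19 for AT3G01830 and 5.12 for AT3G47480.

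**Figure D1:**
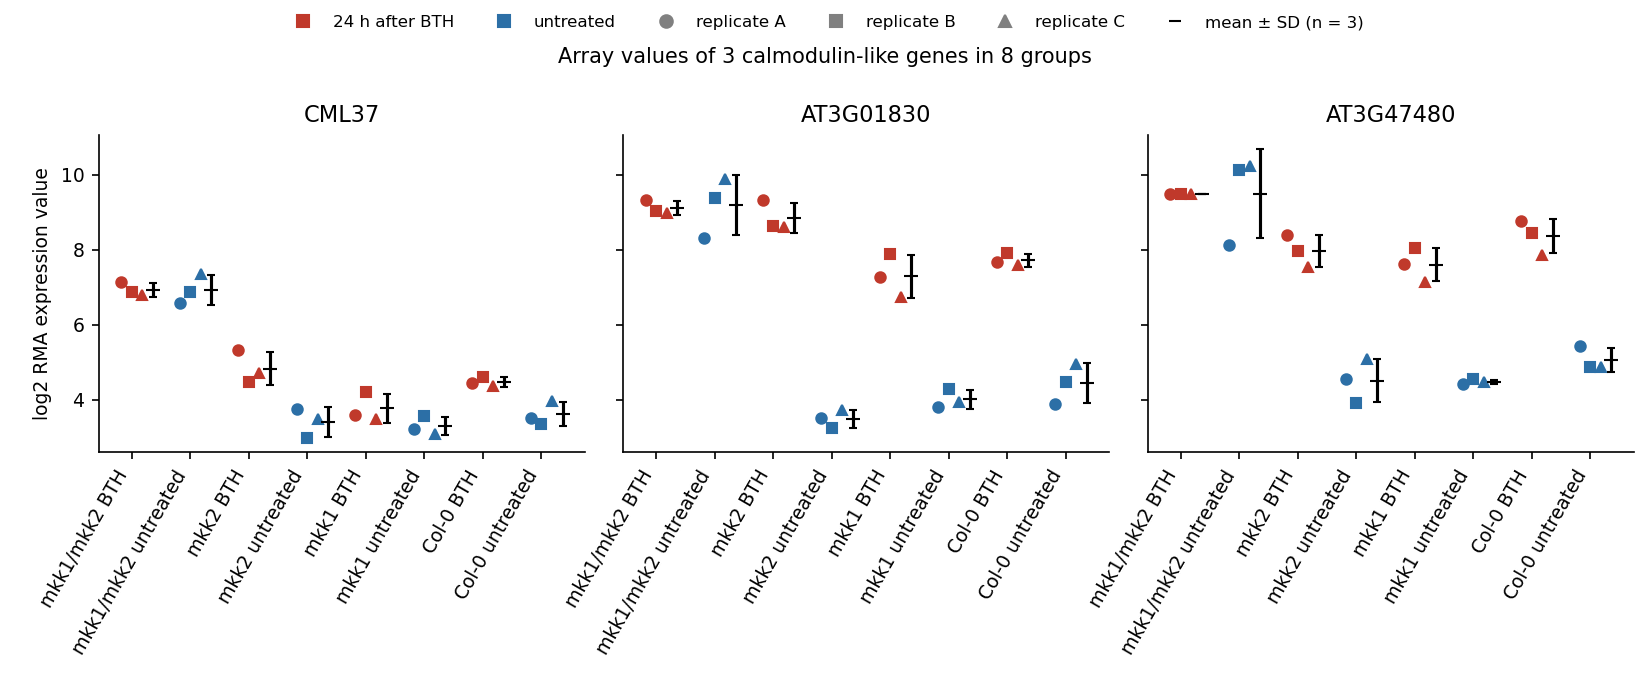
Log2 RMA expression value (y axis) of CML37, AT3G01830 and AT3G47480 on each of 24 arrays, by group on the x axis, with BTH left of untreated within each genotype. Points are arrays, shaped by replicate letter, and bars are the mean ± SD of 3 arrays. In mkk1/mkk2 both groups sit at the top of each panel, joined by BTH-treated mkk2 for AT3G01830 and overlapped by BTH-treated Col-0 and mkk2 for AT3G47480, while in mkk2, mkk1 and Col-0 the BTH arrays of AT3G01830 and AT3G47480 stand clear of the untreated ones.

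The single mutants were close to Col-0 or below it. Untreated CML37 averaged 3.41 ± 0.40 in mkk2 and 3.29 ± 0.24 in mkk1, against 3.61 ± 0.32 in Col-0 (SD, n = 3 each), and the arrays of all 3 groups overlapped. The mkk2 difference of CML37 was -0.20 ± 0.25, and it turned to 0.02 without array B of untreated mkk2 and to 0.22 with array weights. These weights were 25.9 for array B of untreated Col-0 and 1.40 and 1.68 for its arrays A and C. AT3G01830 had 3.52, 3.24 and 3.72 in untreated mkk2, all below the 3 Col-0 arrays, as were 13.8% of all probe sets. The difference was -0.94 ± 0.34, and that of mkk1 was -0.43 ± 0.34 with overlapping arrays. AT3G47480 was -0.58 ± 0.42 in mkk1 relative to Col-0, with its 3 arrays (4.42, 4.54 and 4.46) below all 3 of Col-0, as for 18.4% of all probe sets. In mkk2 the difference was -0.55 ± 0.42 and the arrays overlapped.

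The level in the double mutant was far from the sum of the single-mutant differences. On the log2 scale untreated mkk1/mkk2 exceeded that sum by 3.83 ± 0.36 for CML37, 6.12 ± 0.48 for AT3G01830 and 5.56 ± 0.59 for AT3G47480. For AT3G01830, 7 of the 22746 probe sets had a larger departure, for AT3G47480 22 and for CML37 136. Over all probe sets, 26.8% were called for a departure in either direction. This contrast takes its single mutants from one array set and its other groups from the other set.

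After BTH the 3 genes were higher in mkk2 and in Col-0, and AT3G01830 and AT3G47480 also in mkk1, while in mkk1/mkk2 the differences were between -0.07 and 0.00. AT3G01830 was 40.9-fold higher in mkk2 and 9.71-fold higher in both mkk1 and Col-0. AT3G47480 was 10.9-fold higher in mkk2, 8.69-fold in mkk1 and 9.85-fold in Col-0. CML37 was 2.67-fold higher in mkk2 and 1.82-fold in Col-0. All 3 genes lay below the median of the array on the 9 untreated arrays of mkk2, mkk1 and Col-0, and folds over such dim values are less certain than their digits.

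In mkk2, AT3G01830 had 9.31, 8.62 and 8.61 after BTH, against 3.52, 3.24 and 3.72 untreated. That difference of 5.35 ± 0.34 was exceeded by 14 of the 22746 probe sets. AT3G47480 had 8.38, 7.96 and 7.53 after BTH, against 4.54, 3.91 and 5.07 untreated, a difference of 3.45 ± 0.42. CML37 had 5.31, 4.46 and 4.71 after BTH, against 3.76, 2.98 and 3.49 untreated, a difference of 1.42 ± 0.25. In each of the 3 genes the BTH arrays of mkk2 lay above all untreated ones, as for 12.4% of all probe sets.

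In mkk1 the 2 genes with large differences were again clear of the untreated arrays and CML37 was not. AT3G01830 had 7.26, 7.88 and 6.73 after BTH, against 3.80, 4.29 and 3.94 untreated (difference 3.28 ± 0.34). AT3G47480 had 7.61, 8.03 and 7.14 after BTH, against 4.42, 4.54 and 4.46 untreated (difference 3.12 ± 0.42). For these 2 of 3 genes every BTH array was above every untreated one, as for 14.2% of all probe sets. CML37 had 3.60, 4.20 and 3.49 after BTH, against 3.22, 3.56 and 3.09 untreated, and its difference of 0.47 ± 0.25 left the arrays overlapping.

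In Col-0, AT3G01830 had 7.66, 7.91 and 7.58 after BTH, against 3.89, 4.46 and 4.96 untreated (difference 3.28 ± 0.34). AT3G47480 had 8.76, 8.44 and 7.86 after BTH, against 5.43, 4.86 and 4.87 untreated (difference 3.30 ± 0.42). CML37 had 4.44, 4.61 and 4.36 after BTH, against 3.50, 3.35 and 3.97 untreated (difference 0.86 ± 0.25). All 3 genes were clear of the untreated arrays, as were 11.6% of all probe sets. Without the 3 arrays that stood apart, the Col-0 differences were 0.88 for CML37, 3.31 for AT3G01830 and 3.10 for AT3G47480.

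In mkk1/mkk2 the BTH arrays lay within the range of the untreated ones for AT3G01830, AT3G47480 and CML37 alike. CML37 had 7.14, 6.87 and 6.78 after BTH, against 6.57, 6.86 and 7.35 untreated, a difference of 0.00 ± 0.25. AT3G01830 had 9.32, 9.03 and 8.98 after BTH, against 8.30, 9.38 and 9.87 untreated, a difference of -0.07 ± 0.34. AT3G47480 read 9.49 on each of the 3 BTH arrays, against 8.13, 10.11 and 10.23 untreated, a difference of 0.00 ± 0.42. The BTH arrays were close together and the untreated ones wide apart. Without the 3 arrays that stood apart, the differences were -0.18 for CML37, -0.52 for AT3G01830 and -0.68 for AT3G47480. In this comparison 0.334% of all probe sets were called.

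**Figure D2:**
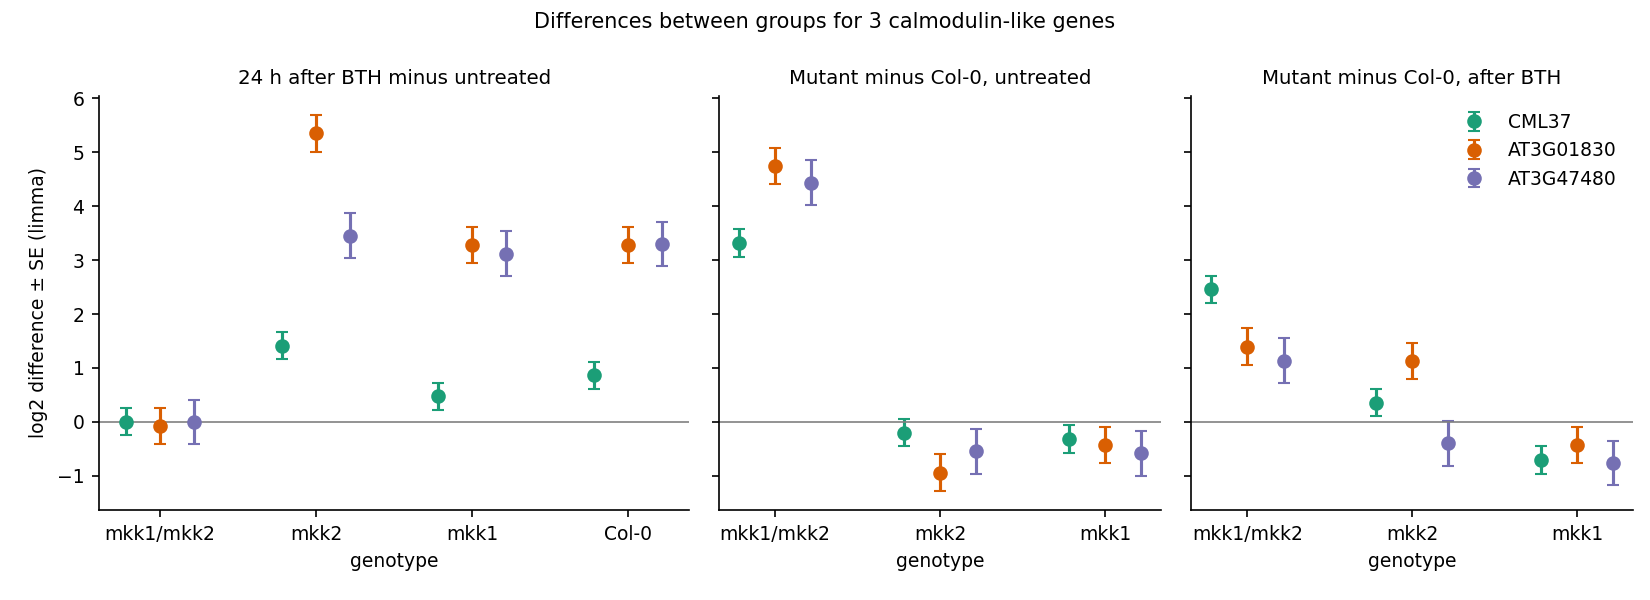
Log2 difference with its SE (y axis) for CML37, AT3G01830 and AT3G47480, by genotype on the x axis. The left panel gives BTH minus untreated, the middle panel mutant minus Col-0 untreated and the right panel mutant minus Col-0 after BTH. The BTH differences of mkk1/mkk2 lie at 0.00, -0.07 and 0.00, and its untreated differences from Col-0 lie between 3.32 and 4.75.

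The BTH difference of mkk1/mkk2 minus that of Col-0 was -0.86 ± 0.36 for CML37, -3.35 ± 0.48 for AT3G01830 and -3.30 ± 0.59 for AT3G47480 on the log2 scale. In mkk2 the same quantity was 2.07 ± 0.48 above Col-0 for AT3G01830, 0.55 ± 0.36 above for CML37 and 0.15 ± 0.59 above for AT3G47480. For AT3G01830, 12 of the 22746 probe sets had a larger value in mkk2. In mkk1 it was -0.39 ± 0.36 for CML37, 0.00 ± 0.48 for AT3G01830 and -0.18 ± 0.59 for AT3G47480, so AT3G01830 and AT3G47480 differed from Col-0 by less than their SE. These contrasts, and those of the mutants with untreated Col-0, share the untreated Col-0 arrays.

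After BTH all 3 genes were still higher in mkk1/mkk2 than in Col-0, by less than without treatment. CML37 was higher by 2.46 ± 0.25, AT3G01830 by 1.39 ± 0.34 and AT3G47480 by 1.14 ± 0.42. Every mkk1/mkk2 array was above every Col-0 array in the 3 genes, as for 18% of all probe sets. In mkk2, AT3G01830 was 1.13 ± 0.34 higher than in Col-0 with no overlap, as for 12.1% of all probe sets. CML37 (0.36 ± 0.25) and AT3G47480 (-0.40 ± 0.42) overlapped between mkk2 and Col-0. With array weights, which gave array B of BTH-treated Col-0 a weight of 0, these values were 0.75 and 0.062. In mkk1 all 3 had a lower mean than in Col-0, with differences of -0.71 ± 0.25 in CML37, -0.43 ± 0.34 in AT3G01830 and -0.76 ± 0.42 in AT3G47480. Only CML37 lay below Col-0 on all 3 mkk1 arrays, as did 10.6% of all probe sets.

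The single mutants share an array set, so the comparison between them is free of that limit, although the labels record the BTH spray only for mkk2. After BTH, CML37 was 1.06 ± 0.25 higher in mkk2 than in mkk1 and AT3G01830 1.56 ± 0.34 higher, with no overlap in either gene. All mkk2 arrays were above all mkk1 arrays for 3.68% of all probe sets. AT3G47480 differed by 0.36 ± 0.42 and its arrays overlapped. Untreated, AT3G01830 was lower in mkk2 than in mkk1 (-0.52 ± 0.34), with every mkk2 array below every mkk1 array, as for 3.1% of all probe sets. CML37 (0.12 ± 0.25) and AT3G47480 (0.03 ± 0.42) overlapped. The BTH difference of mkk2 exceeded that of mkk1 by 2.07 ± 0.48 in AT3G01830, 0.94 ± 0.36 in CML37 and 0.33 ± 0.59 in AT3G47480.

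Untreated mkk1/mkk2 was also above BTH-treated Col-0. The difference was 2.46 ± 0.25 for CML37, 1.47 ± 0.34 for AT3G01830 and 1.14 ± 0.42 for AT3G47480. CML37 and AT3G01830 did not overlap between these groups, as for 11.2% of all probe sets, and AT3G47480 overlapped through array A of mkk1/mkk2 (8.13). Without the 3 arrays that stood apart, the values were 2.62 for CML37, 1.88 for AT3G01830 and 2.02 for AT3G47480, of which the last is over 1.5 times the value with them.

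The order of the 8 groups was not the same in the 3 genes. CML37 ran mkk1/mkk2 BTH (6.93 ± 0.19), mkk1/mkk2 untreated (6.93 ± 0.39), mkk2 BTH (4.83 ± 0.44), Col-0 BTH (4.47 ± 0.13), mkk1 BTH (3.76 ± 0.38), Col-0 untreated (3.61 ± 0.32), mkk2 untreated (3.41 ± 0.40) and mkk1 untreated (3.29 ± 0.24). Its arrays separated between neighbours at 2 places, below untreated mkk1/mkk2 and below BTH-treated Col-0. AT3G01830 ran mkk1/mkk2 untreated (9.18 ± 0.80), mkk1/mkk2 BTH (9.11 ± 0.18), mkk2 BTH (8.85 ± 0.40), Col-0 BTH (7.72 ± 0.17), mkk1 BTH (7.29 ± 0.58), Col-0 untreated (4.44 ± 0.54), mkk1 untreated (4.01 ± 0.25) and mkk2 untreated (3.49 ± 0.24). Here BTH-treated mkk2 overlapped with the double mutant, and neighbours separated at 3 places, below mkk2 BTH, below mkk1 BTH and below mkk1 untreated. AT3G47480 ran mkk1/mkk2 BTH (9.49 with an SD of 0 at 2 decimals), mkk1/mkk2 untreated (9.49 ± 1.18), Col-0 BTH (8.35 ± 0.46), mkk2 BTH (7.96 ± 0.43), mkk1 BTH (7.59 ± 0.45), Col-0 untreated (5.05 ± 0.33), mkk2 untreated (4.51 ± 0.58) and mkk1 untreated (4.47 ± 0.06). Its only separation between neighbours fell between mkk1 BTH and Col-0 untreated.

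Within groups the 3 genes lay to the same side of their means on some arrays. On 14 of the 24 arrays all 3 were above, or all 3 below, the mean of their own group. On the 3 BTH arrays of mkk1/mkk2 AT3G47480 equalled its group mean, so these arrays could not count. The same count was not made for other sets of 3 probe sets, so whether 14 is many is not known. For AT3G47480 and AT3G01830 the array farthest from its group mean was array A of untreated mkk1/mkk2, with AT3G47480 at 8.13 against a group mean of 9.49, while CML37 was farther from its mean on other arrays. Arrays share RNA quality and normalization across genes, and this count is a description.

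**Figure D3:**
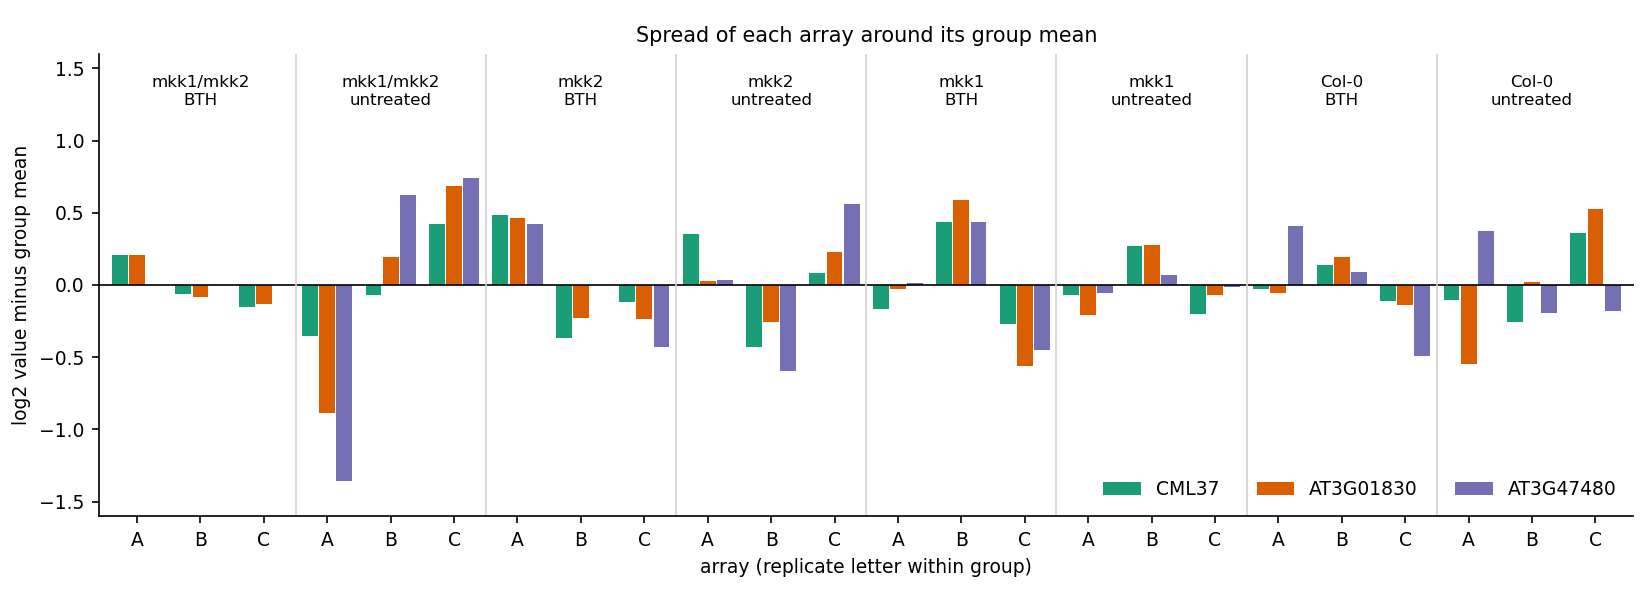
Log2 value minus the mean of its group (y axis) for CML37, AT3G01830 and AT3G47480 on each of 24 arrays (x axis, replicate letters within groups). Bars of the 3 genes point the same way on 14 arrays, and array A of untreated mkk1/mkk2 has the longest bars below 0 for AT3G01830 and AT3G47480.

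Over the 24 arrays AT3G01830 and AT3G47480 followed each other more closely than either followed CML37. Pearson's r was 0.965 between AT3G01830 and AT3G47480, 0.824 between CML37 and AT3G01830, and 0.851 between CML37 and AT3G47480. Likeness was ranked among 2832 single-gene probe sets with an SD of at least 0.5. The arrays fall into groups with large differences, so these values mostly carry the group pattern and have no p. AT5G39670, another calmodulin-like family gene, was the closest to both AT3G01830 (r = 0.982) and AT3G47480 (0.980). AT5G52760, SAL2 (AT5G64000) and AT3G48640 followed in both, with r of 0.980, 0.976 and 0.975 for AT3G01830 and 0.972, 0.978 and 0.972 for AT3G47480. AT1G57630 (0.978 with AT3G01830) and GRX480 (0.971 with AT3G47480), which encodes a glutaredoxin, completed the first 5 of each. The 5 genes closest to CML37 were different ones, AT1G02470 (0.969), AT4G39670 (0.967), AT5G22540 (0.966), AT1G65690 (0.966) and AT1G15010 (0.964). In the calmodulin-like family, CML41 (0.938) and CML43 (0.920) were the closest to CML37.

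The other calmodulin-like family genes were tested with limma, with p-values adjusted by Benjamini-Hochberg over all 22746 probe sets. Of 50 family loci 35 had a probe set of their own, 32 besides the 3 genes above. At an adjusted p under 0.05, 19 of the 32 were called in at least 1 of 10 comparisons, made of BTH against untreated in 4 genotypes and each mutant against Col-0 without and with BTH. The other 13 were called in none. Among these, AT1G24620, AT1G32250, AT1G76640, AT2G36180, AT3G03400, AT3G03410, AT3G59440, AT4G03290 and AT5G17470 lay below the smallest array median of 5.57 on every array. At such dim levels the absence of a call says little. The 19 called genes are 59.4% of the 32, beside 46.6% of all probe sets called in at least 1 of the same comparisons.

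Of the 52 calls that the 32 genes gave over the 10 comparisons, 18 were between untreated mkk1/mkk2 and Col-0, more than in any other of the 10. This comparison also had the most calls over all probe sets, 7573 of the 22746, so its lead is not particular to the family. Of the 32 genes 13 were higher and 5 lower in the double mutant, 56.2% in all, beside 33.3% of all probe sets (16.1% higher and 17.2% lower). The median difference was 0.15 in the 32 genes and -0.01 over all probe sets. AT5G39670 was 20.4-fold higher (4.35 ± 0.34, adjusted p = 5.9e-09). CML41, known for closing plasmodesmata with callose in immunity, had 6.08, 8.48 and 8.54 in untreated mkk1/mkk2, against 4.70, 4.65 and 4.33 in Col-0 (8.81-fold, adjusted p = 4.44e-06), with array A again the lowest. CML43, known from the hypersensitive response to bacteria, was 6.13-fold higher (2.62 ± 0.24, adjusted p = 5.78e-08). Among those lower, AT1G73630 was 7.48-fold lower (-2.90 ± 0.25, adjusted p = 2.98e-08) and CML23, known for its part in nitric oxide levels and flowering time, 2.16-fold lower (adjusted p = 0.00655, lost when only the 6 arrays compared were fitted). Both AT1G73630 and CML23 were also lower in untreated mkk2 and mkk1. The call of AT3G10190, 4.43-fold higher (adjusted p = 0.0104), was lost without array A of untreated mkk1/mkk2.

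After BTH the double mutant still had 7 of the 32 genes higher and 2 lower than Col-0, beside 21.6% of all probe sets (11.4% higher and 10.2% lower). These 7 were all among the 13 higher without treatment. The same overlap was not counted over all probe sets, so it cannot be read as particular to the family. CML41 was 6.22-fold higher (adjusted p = 6.87e-05), AT5G39670 2.86-fold (adjusted p = 0.00243) and CML43 2.70-fold (adjusted p = 0.000178). AT1G73630 was 4.06-fold lower (adjusted p = 6.71e-06). Against BTH-treated Col-0, untreated mkk1/mkk2 had 12 of the 32 higher and 1 lower, beside 19.5% of all probe sets (9.37% higher and 10.1% lower). Some of these calls were lost in the alternatives listed with the processing below. They were AT2G27480 (24 of 31 alternatives), AT3G10190 (19 of 32), AT2G41410 (13 of 32) and AT1G21550 (7 of 32). Each other call was lost in 1 alternative at most.

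BTH changed fewer family genes. In mkk2, 7 of the 32 rose and 0 fell, beside 6.2% of all probe sets that rose and 4.55% that fell. In mkk1, 4 rose and 0 fell, beside 4.77% and 3.81%. In Col-0, 2 rose and 2 fell, beside 4.55% and 4.27%. AT5G39670 was the one gene among the 32 that rose in mkk2, mkk1 and Col-0, by 3.95 ± 0.34 (adjusted p = 1.05e-07), 2.69 ± 0.34 (2.52e-05) and 2.63 ± 0.34 (3.18e-05). AT2G41090 rose 3.32-fold in mkk2 (adjusted p = 0.000118) and 3.05-fold in mkk1 (adjusted p = 0.000411). The other genes that rose did so by less than 3-fold. AT3G25600 rose 2.87-fold in mkk2 (adjusted p = 5.71e-05) and 2.04-fold in mkk1 (adjusted p = 0.00411). AT1G18210 rose 2.14-fold in mkk2 (adjusted p = 0.00018) and 1.66-fold in Col-0 (adjusted p = 0.00927). CML23 fell 2.56-fold in Col-0 (adjusted p = 0.00601), as did AT1G73630 by 2.18-fold (adjusted p = 0.00697), a call lost without array A of untreated Col-0. When the Col-0 arrays were fitted alone, neither of these 2 falls was called. Whether these changes differ between genotypes was tested by the contrasts of responses below.

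In mkk1/mkk2, limma called 0 of the 32 after BTH, beside 0.334% of all probe sets. An unadjusted p under 0.05 was found in 3 of the 32, beside 2770 of the 22746 probe sets. Of the 7 genes that rose in mkk2, 6 were among the 13 that were higher in untreated mkk1/mkk2, which is 85.7% of the 7 and 46.2% of the 13. Over all probe sets, 1100 were in both sets, which is 78% of the 1410 that rose in mkk2 and 30.1% of the 3654 that were higher in untreated mkk1/mkk2. The 2 comparisons share no arrays. The exception was AT2G41090, whose untreated level was 12.36 ± 0.64 in mkk1/mkk2 and 12.25 ± 0.11 in Col-0 (SD, n = 3 each).

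**Figure D4:**
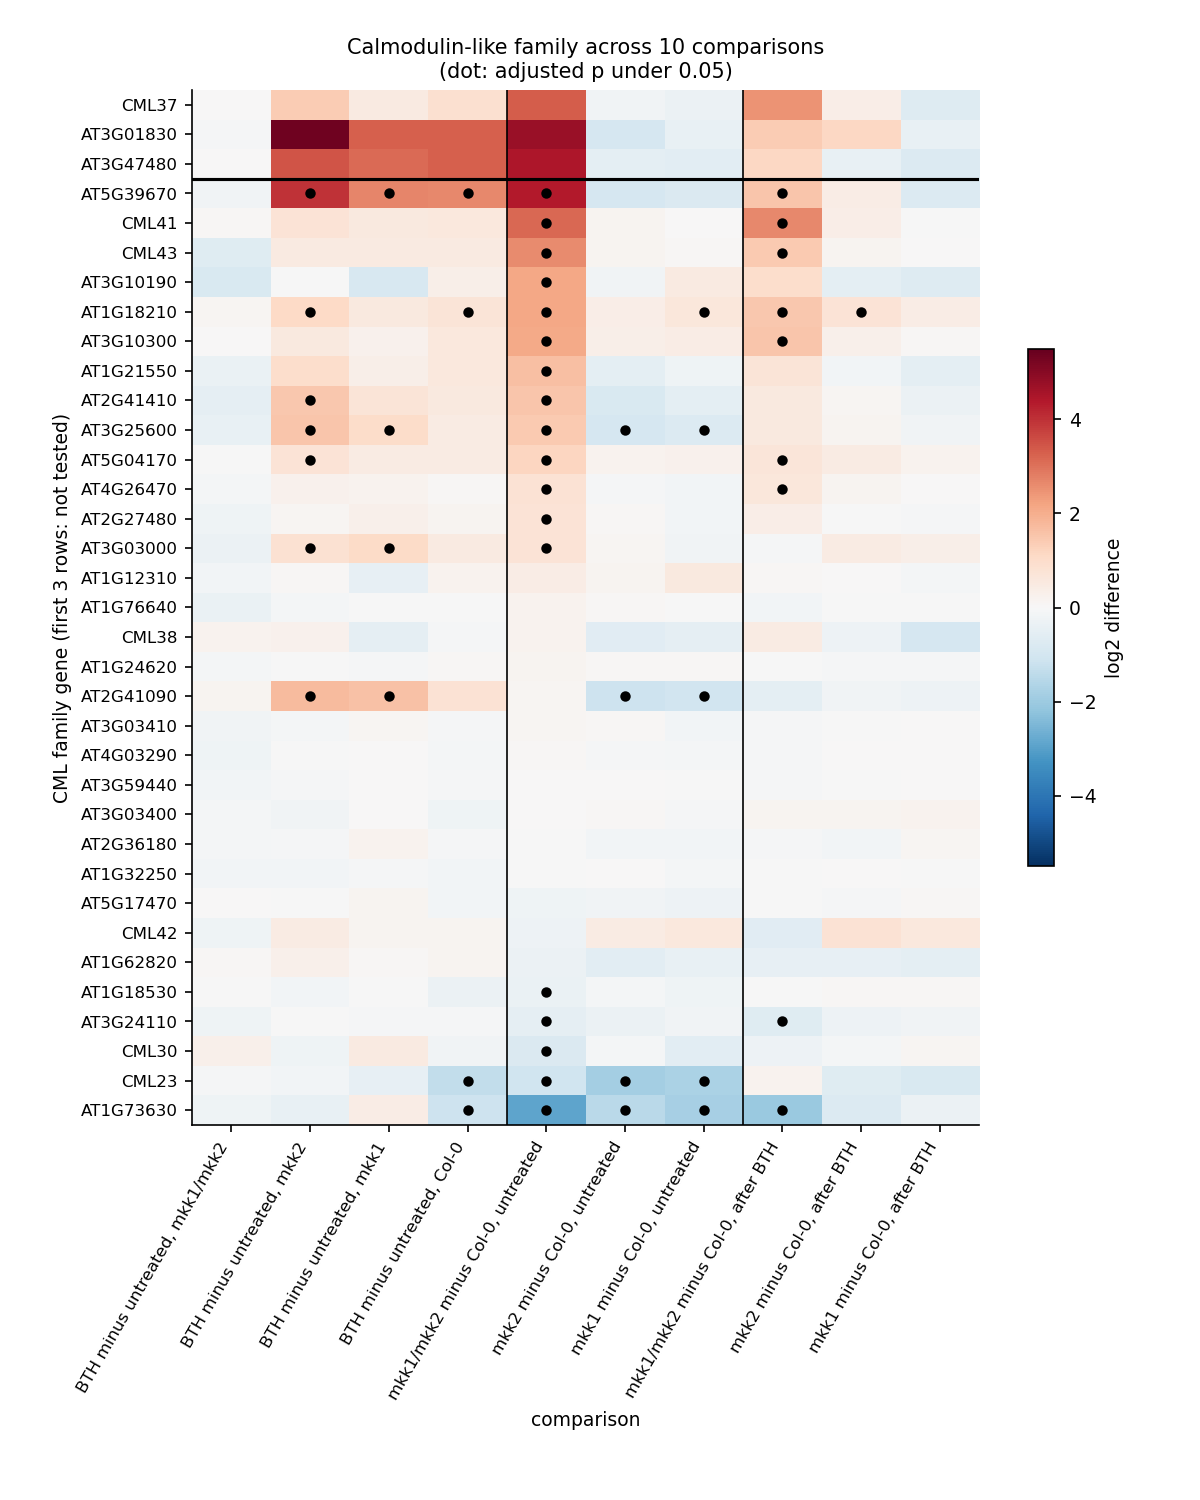
Log2 difference (colour) of the 35 measured calmodulin-like family genes, 1 per line, in 10 comparisons along the x axis. The 3 genes above the black line were not tested, the other 32 are sorted by the difference between untreated mkk1/mkk2 and Col-0, and a dot marks an adjusted p under 0.05. The column of untreated mkk1/mkk2 holds 18 dots and that of BTH in mkk1/mkk2 holds 0, where 33.3% and 0.334% of all probe sets were called.

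The untreated single mutants had lower levels of a few family genes than Col-0. In mkk2, 0 of the 32 were higher and 4 lower, beside 3.5% and 4.13% of all probe sets. In mkk1, 1 was higher and 4 lower, beside 9.46% and 7.83%, and with arrays centred on their medians it was 0 higher and 4 lower. The 4 lower genes were CML23, AT1G73630, AT2G41090 and AT3G25600 in both. CML23 was 3.71-fold lower in mkk2 (adjusted p = 0.00148) and 3.37-fold in mkk1 (adjusted p = 0.000861). AT1G73630 was 2.76-fold lower in mkk2 (adjusted p = 0.00236) and 3.60-fold in mkk1 (adjusted p = 0.00025). AT2G41090 was 2.17-fold lower in mkk2 (adjusted p = 0.0132), a call lost in 4 of 32 alternatives, among them without array B of untreated mkk2. In mkk1 AT2G41090 was 2.10-fold lower (adjusted p = 0.0078), a call lost without array A of untreated mkk1. The calls of AT3G25600 were lost in 2 of 32 alternatives in mkk2 and in 5 of 32 in mkk1. With the arrays of the contrast alone, 0 of the 32 were called in mkk2. The 2 comparisons share their Col-0 arrays, and both set one array set against the other. After BTH, 1 of the 32 was called in mkk2 against Col-0, which was AT1G18210 at 1.67-fold higher (adjusted p = 0.0288), beside 1.83% of all probe sets. That call was lost without any 1 of the 6 arrays compared. In mkk1 limma called 0 of the 32 after BTH, beside 0.62% of all probe sets. An unadjusted p under 0.05 was found in 5 of the 32, beside 3657 of the 22746 probe sets.

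The test of the difference in BTH response called 1 of the 32 genes for mkk1/mkk2 against Col-0, beside 2.33% of all probe sets. It was AT5G39670, whose response was lower by 2.84 on the log2 scale (-2.84 ± 0.48, adjusted p = 0.00172). AT5G39670 had 10.32, 10.16 and 10.12 after BTH in mkk1/mkk2, against 9.52, 10.62 and 11.07 untreated. In Col-0 it had 8.96, 8.91 and 8.18 after BTH, against 5.85, 5.78 and 6.52 untreated. For the response of mkk2 against Col-0 limma called 0 of the 32, beside 0.022% of all probe sets. An unadjusted p under 0.05 was found in 4 of the 32, beside 873 of the 22746 probe sets. For mkk1 against Col-0 limma called 0, beside 0% of all probe sets. Here too 4 of the 32 had an unadjusted p under 0.05, beside 2237 of the 22746 probe sets.

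Between mkk2 and mkk1 limma called none of the 32. The unadjusted p was under 0.05 in 0 genes untreated, in 2 after BTH and in 3 for the response, beside 3.82%, 1.81% and 3.19% of all probe sets. At the adjusted p, 0.0044%, 0.0308% and 0.0044% of all probe sets were called. The test of untreated mkk1/mkk2 against the summed differences of the single mutants was called upward in 13 of the 32 and downward in 1, beside 12.3% and 14.5% of all probe sets. AT5G39670 departed by 6.06 ± 0.48 (adjusted p = 3.36e-08). The gene that departed downward was CML42, known for its part in trichome branching and herbivore defence (-1.32 ± 0.36, adjusted p = 0.00984), a call lost when only the 12 arrays of the contrast were fitted.

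Other calcium genes had fewer probe sets of their own. No calmodulin, CBL, CPK or CIPK gene and no calcium pump or exchanger was named by a single-gene probe set in the annotation used (0 of each), and these are not analysed here. All 8 genes measured from the calcium channel families were glutamate receptor-like channels (GLR). GLR2.7 rose after BTH by 5.08-fold in mkk2 (adjusted p = 7.01e-05), 4.08-fold in mkk1 (adjusted p = 0.000522) and 2.66-fold in Col-0 (adjusted p = 0.00997), a Col-0 call lost without array B of untreated Col-0 or array C of BTH-treated Col-0. GLR1.4 rose by 3.05-fold in mkk2 (adjusted p = 0.000841), 3.19-fold in mkk1 (adjusted p = 0.000893) and 2.48-fold in Col-0 (adjusted p = 0.00651). With GLR2.8 in mkk2, this made 3 of 8 channels that rose in mkk2, 2 in mkk1 and 2 in Col-0, and 0 that fell. Over all probe sets, 6.2%, 4.77% and 4.55% rose in mkk2, mkk1 and Col-0, and 4.55%, 3.81% and 4.27% fell. In untreated mkk1/mkk2, 4 of the 8 were higher than in Col-0 and 0 lower, beside 16.1% and 17.2% of all probe sets. These were GLR1.4 by 4.40-fold (adjusted p = 9.43e-06), GLR2.7 by 3.68-fold (adjusted p = 0.000177), ATGLR1.2 by 2.51-fold (adjusted p = 6.08e-07) and GLR2.8 by 1.65-fold (adjusted p = 0.000259). After BTH, mkk1/mkk2 had 3 of the 8 higher than Col-0 (ATGLR1.2, GLR1.4 and GLR2.8) and 1 lower (GLR3.6 by 1.35-fold, adjusted p = 0.039, lost in 6 of 31 alternatives, without any 1 Col-0 array among them), beside 11.4% and 10.2% of all probe sets. In mkk1/mkk2 limma called 0 of the 8 for BTH against untreated, beside 0.334% of all probe sets. An unadjusted p under 0.05 was found in 2 of the 8, beside 2770 of the 22746 probe sets. The list of IQD genes, which encode calmodulin-binding proteins, had 12 measured. In untreated mkk1/mkk2, 1 was lower and 0 were higher than in Col-0, beside 17.2% and 16.1% of all probe sets. The lower gene was IQD23, by 2.34-fold (adjusted p = 7.13e-06). Untreated mkk2 had 1 lower, IQD23 (1.85-fold, adjusted p = 0.0038), and 1 higher, IQD27 (0.32 ± 0.09, adjusted p = 0.0403), beside 4.13% and 3.5% of all probe sets. Untreated mkk1 had 1 lower, IQD23 (1.59-fold, adjusted p = 0.00825), and 2 higher, IQD26 (2.00-fold, adjusted p = 0.024) and IQD18 (1.44-fold, adjusted p = 0.0279), beside 7.83% and 9.46%. The calls of IQD27, IQD26 and IQD18 were lost in 11, 4 and 5 of 31 alternatives, among them without array A of untreated Col-0. Among the IQD genes 0 were called after BTH in any genotype. Over all probe sets 0.334% were called in mkk1/mkk2. In mkk2, mkk1 and Col-0, 6.2%, 4.77% and 4.55% of all probe sets rose and 4.55%, 3.81% and 4.27% fell. An unadjusted p under 0.05 was found in 1 of the 12 in mkk1/mkk2, 2 in mkk2, 3 in mkk1 and 0 in Col-0. The same held for 2770, 4801, 4602 and 4611 of the 22746 probe sets. Of 3 calmodulin-binding transcription factors, AT1G67310 (2.13-fold, adjusted p = 0.00468) and AT3G16940 (1.68-fold, adjusted p = 0.0353) were higher in mkk1/mkk2 than in Col-0 after BTH, beside 11.4% of all probe sets, and the call of AT3G16940 was lost in 7 of 31 alternatives, among them without array A of BTH-treated Col-0. AT4G16150 was higher in mkk2 than in Col-0 after BTH (1.64-fold, adjusted p = 0.0332), beside 1.83% of all probe sets called in either direction. Its call was lost in 7 of 32 alternatives. Of 2 other EF-hand genes, AT4G27280 was 4.36-fold lower in untreated mkk2 (adjusted p = 0.0172) and 3.98-fold lower in untreated mkk1 (adjusted p = 0.0119) than in Col-0, beside 4.13% and 7.83% of all probe sets, calls lost in 5 and 3 of 32 alternatives, among them without array C of untreated Col-0.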

How the data were processed

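The deposited table, per the labels, holds log2 expression values that the authors made with RMA (background correction, quantile normalization and a summary per probe set). They have 2 decimals, and neither the RMA version nor the arrays normalized together are given in the sources used here. Values were not transformed again. The 64 AFFX control probe sets served as quality measures and the other 22746 were tested with no filter on level. A single symbol was given for 13513 probe sets, several for 503 and none for 8730, and only single-gene probe sets were named. Loci were matched to the array annotation and a RefSeq gene table.

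All comparisons are contrasts in 1 model of 8 group means over the 24 arrays, fitted with limma 3.58.1 (lmFit and eBayes) in R 4.3.3, with p-values adjusted by Benjamini-Hochberg over 22746 probe sets within each of 18 contrasts. The code was tested on simulated data. The 3 genes, the lists and the comparisons were chosen with earlier results of these data known, so the 3 genes get differences and SEs only. Named genes were these 3, the calmodulin-like family, up to 4 called genes with the largest difference from each other calcium list, and the 5 most similar genes of each of the 3. Alternatives were a replicate block, array weights, median centring, quantile normalization, a trended robust fit and a filter on mean level of at least 6. Further alternatives were the arrays of a contrast alone, leaving out each array, and leaving out the 3 arrays least like their group.

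Replicate letters recur in each genotype. Deviations from the group means of same-lettered BTH and untreated arrays correlated at over 0.1 in 7 of 12 pairs (-0.06 to 0.61), so the letters were not taken as a pairing over all genotypes. In mkk1/mkk2 alone all 3 pairs exceeded 0.1 (0.17 to 0.31).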

Additional observations from a re-analysis of the deposited data

Results flagged for a closer look

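AT5G39670, the calmodulin-like family gene with the highest correlation with AT3G01830 and AT3G47480, stood out because its response to BTH differed between genotypes by a test of the difference itself. The response of mkk1/mkk2 minus that of Col-0 was -2.84 ± 0.48 on the log2 scale (limma, adjusted p = 0.00172, n = 3 arrays in each of 4 groups). The adjusted p ranged between 6.81e-05 and 0.0253 over 32 alternatives. The 3 BTH arrays of mkk1/mkk2 lay within the range of its untreated arrays, while in Col-0 the 3 BTH arrays lay above the 3 untreated ones.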

How the results depend on the processing

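For CML37, AT3G01830 and AT3G47480, 817 of 828 recomputed differences moved by less than 1 SD (pooled within the groups compared). Much of this count was fixed in advance. The replicate block, the trended robust fit, the level filter and the arrays of a contrast alone leave a difference of group means unchanged. Leaving out 1 array could not move a difference between a pair of groups by 1 SD. The sign changed under at least 1 alternative in 8 of 54 comparisons, in 0 of which the reported difference was beyond its SE. The estimation of array weights stopped before its convergence tolerance. The weights ran from 0 for array B of BTH-treated Col-0 to 25.9 for array B of untreated Col-0, with 15.3 for array A of BTH-treated mkk2. Values and counts with array weights therefore lean on few arrays in these groups. With array weights, CML37 was 3.80 higher in untreated mkk1/mkk2 than in Col-0. Untreated mkk1/mkk2 was then above BTH-treated Col-0 by 2.80 for CML37 and 2.08 for AT3G01830. Array weights also gave, against Col-0, 0.22 (untreated) and 0.75 (after BTH) for CML37 in mkk2, 1.55 for AT3G01830 and 0.062 for AT3G47480 in mkk2 after BTH, and responses of -1.29 for CML37 in mkk1/mkk2 and 2.49 for AT3G01830 in mkk2. For AT3G47480 the response of mkk1/mkk2 minus Col-0 was -3.98 to -2.93 and the departure from the sum 5.19 to 6.24 with 1 array left out. CML37 drops out when a mean level of at least 6 is asked for.

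Counts below are called CML family genes of the 32. With array weights they were 1 for BTH in mkk1/mkk2, 14 in mkk2, 9 in mkk1 and 8 in Col-0, 7 for untreated mkk2 and 14 for untreated mkk1 against Col-0, 2 for mkk2 against Col-0 after BTH, 3 for the response of mkk1/mkk2 against Col-0, and for mkk2 against mkk1 1 after BTH and 3 for the response. Without the 3 arrays that stood apart they were 1 for BTH in mkk1/mkk2, 9 in mkk1 and 7 in Col-0, 9 for untreated mkk1 against Col-0, 2 for mkk2 against Col-0 after BTH, 3 for the response of mkk1/mkk2, and 3 for untreated mkk2 against mkk1. With the arrays of a contrast alone they were 10, 0, 14, 2 and 4 for mkk1/mkk2 and mkk2 against Col-0 untreated, mkk1/mkk2 and mkk2 against Col-0 after BTH, and untreated mkk1/mkk2 against BTH-treated Col-0. At a mean level of at least 6, untreated mkk1/mkk2 against Col-0 gave 11, and quantile normalization gave 2 for the response of mkk1/mkk2. With 1 array left out the counts ran 0 to 1 for BTH in mkk1/mkk2, 3 to 7 in mkk1 and 3 to 9 in Col-0 (7 and 9 without array A of untreated mkk1/mkk2), 2 to 6 for untreated mkk2 (2 without its array B) and 3 to 6 for untreated mkk1 against Col-0, 0 to 2 for mkk2 against Col-0 after BTH, and for the response 1 to 3 in mkk1/mkk2 and 0 to 1 in mkk1 (3 and 1 without array C of untreated Col-0). The cause of these shifts was not tested.

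With the replicate letter as a block, 0 of the 32 genes were called for BTH in mkk1/mkk2, 8 in mkk2, 4 in mkk1 and 6 in Col-0, and 18 for untreated mkk1/mkk2 against Col-0. The block moved no count by over 1.5 times and ended no call of AT5G39670. It gives each letter the same effect in every group, so it does not model pairs of arrays within a genotype. Each family gene has 1 probe set, so using all probe sets of a gene would give the same values and was not run. Dim probe sets such as CML37 outside mkk1/mkk2 limit how far small differences can be read.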

Other observations

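AT3G47480 read 9.49 on all 3 BTH arrays of mkk1/mkk2 and also averaged 9.49 over its 3 untreated arrays. No pair of arrays held identical values over the table (0 pairs).

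CML38, known from hypoxia and wound responses, was called in none of the 10 comparisons between pairs of groups. Its untreated Col-0 arrays read 5.35, 6.01 and 8.00, a wider spread than that of CML37 on the same arrays (SD 1.38 for CML38 and 0.32 for CML37).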
